A study of Mus musculus with 16 samples.

Results

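The antiviral interferon-stimulated genes followed here in cultured mouse monocytes were Ifit1, Ifit2, Ifit3, Isg15, Usp18, Rsad2, Mx1, Oas1a, Oasl1 and Oasl2. They were chosen by symbol, and all 10 were found among the 13085 genes of the table. The 16 libraries came from monocytes of C57BL/6 NFAM1+/+ and NFAM1-/- mice. NFAM1 is a cell surface receptor of myeloid cells, and the NFAM1-/- mice lack exons 2 and 3 of the gene in all cells from the zygote on. The cells were left unstimulated or were treated with IFN-γ plus CD40L, in the form of MegaCD40L at 1 µg/mL, and were taken at 6 h or 24 h. Each combination of stimulus, time and genotype had 2 libraries, so 4 libraries stood for each stimulus and time. The labels tag the cells as monocytes of peripheral blood, whereas the methods describe monocytes enriched from bone marrow. Labels and RNAseq methods give unlike doses of IFN-γ, and which mouse gave which library is not stated in the sources used here. Without that, the p-values measure the spread between these libraries, which may be technical in part.

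The genotypes below are those of the sample titles. For 4 libraries at 24 h, numbered 44, 46, 56 and 58 in their titles, the title and the genotype tag name different genotypes. Comparisons of stimulus and time averaged the genotypes and used the same 4 libraries whichever label was taken. The Nfam1 transcript, read over the whole gene, was at 432 and 408 CPM (the usual depth-corrected read count, here relative to a scaled library size) in the unstimulated NFAM1+/+ libraries at 6 h and at 299 and 321 CPM in the NFAM1-/- libraries. With the stimulus at 6 h it was at 129 and 133 CPM in NFAM1+/+ and at 127 and 135 CPM in NFAM1-/-, so these libraries did not separate. At 24 h the titles put NFAM1+/+ at 463 and 495 CPM and NFAM1-/- at 391 and 441 CPM without the stimulus, and at 252 and 271 against 201 and 223 CPM with it. By the genotype tag the Nfam1 values of the genotypes overlapped at 24 h, with and without the stimulus. All 8 monocyte markers on a list that included Ly6c2, Ccr2 and Csf1r were present. Their summed level was 21627 to 29954 CPM without the stimulus and 8174 to 11674 CPM with it. Lyz2, the highest of the 8 in each library, was at 15690 to 23256 CPM without the stimulus and 2667 to 7390 CPM with it. Single markers went both ways. At 6 h Ly6c2 was at 345 to 503 CPM without the stimulus and at 2200 to 2505 CPM with it. Cd14 was at 648 to 807 CPM without the stimulus and at 50 to 89.7 CPM with it. The B cell marker Ms4a1, the T cell markers Cd3e, Cd3d and Cd3g, and all 4 NK cell markers searched for were not listed in the table. The libraries held 48295939 to 88514341 reads on the listed genes.

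These genes are switched on when interferon binds its receptor on the cell surface. Type I interferons, such as interferon beta, act through the kinases JAK1 and TYK2 to assemble a complex with STAT2 and IRF9 that binds the interferon-stimulated response element in front of such genes. IFN-γ, the type II interferon, acts through JAK1 and JAK2 and another element, GAS, and induces IRF1, a factor that can also bind the response element. Many products of the 10 genes act against viruses, at several steps. IFIT proteins bind viral RNA, ISG15 is a ubiquitin-like protein that is attached to others, USP18 removes it again and damps the type I receptor, viperin (Rsad2) makes a nucleotide that stops viral polymerases, and MX1 is a GTPase that traps viral nucleoproteins. OAS1A makes oligoadenylates, which are signals for the breakdown of RNA, and OASL1 and OASL2 are its relatives with ubiquitin-like domains. Most laboratory strains, C57BL/6 among them, carry an Mx1 allele that gives no functional protein, so Mx1 is read here as a transcript only.

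The promoter windows that hold the core of the response element are shown because this element is the feature by which the genes are known. RefSeq windows of build GRCm38.p6, from 250 bases before to 50 after the start of transcription, were found for 8 of the 10 genes and not for Usp18 and Mx1. This build is older than GRCm39, which the submitters' processing notes name. The core was searched as GAAANNGAA and GAS as TTCNNNGAA on both strands, and matches could overlap. The 160 bases before the start are given 5′ to 3′ for the 5 genes with a match to the core, in lower case with the matches in capitals. A core on the minus strand reads as TTCNNTTTC.
Ifit1: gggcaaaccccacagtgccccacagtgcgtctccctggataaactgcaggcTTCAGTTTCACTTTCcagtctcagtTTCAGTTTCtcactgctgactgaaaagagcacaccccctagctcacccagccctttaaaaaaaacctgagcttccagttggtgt
Ifit3: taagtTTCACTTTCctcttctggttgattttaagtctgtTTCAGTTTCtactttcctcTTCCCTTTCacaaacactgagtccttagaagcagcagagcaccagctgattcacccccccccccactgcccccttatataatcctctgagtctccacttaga
Isg15: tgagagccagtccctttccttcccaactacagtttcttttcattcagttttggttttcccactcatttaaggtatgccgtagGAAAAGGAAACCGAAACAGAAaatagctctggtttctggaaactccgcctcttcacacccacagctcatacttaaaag
Rsad2: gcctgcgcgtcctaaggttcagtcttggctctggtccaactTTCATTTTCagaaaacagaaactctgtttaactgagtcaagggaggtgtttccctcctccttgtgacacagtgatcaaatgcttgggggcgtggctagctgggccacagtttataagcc
Oas1a: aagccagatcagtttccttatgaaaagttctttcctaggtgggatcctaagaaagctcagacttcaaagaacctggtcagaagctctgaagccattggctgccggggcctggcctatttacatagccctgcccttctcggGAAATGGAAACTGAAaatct
These windows lie at chr19:34640729-34640888 on the plus strand for Ifit1, at chr19:34583369-34583528 on the plus strand for Ifit3, at chr4:156200819-156200978 on the minus strand for Isg15, at chr12:26456453-26456612 on the minus strand for Rsad2 and at chr5:120907526-120907685 on the minus strand for Oas1a.

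Ifit1, Ifit3 and Isg15 each held 3 matches to the core, Oas1a held 2 and Rsad2 held 1. In Ifit1 they began 109, 103 and 84 bases before the start, and the first pair overlapped. The matches in Isg15 began 78, 72 and 66 bases before it and formed a single overlapping run. In Oas1a the pair overlapped and began 20 and 14 bases before the start, closer than in the other windows. The windows of Ifit2, Oasl1 and Oasl2 held no match to the core. GAS was matched in Oas1a, 98 bases before the start, and in 1 of the 2 windows of Ifit2. The core was found in 8.56% of all 32851 windows and GAS in 8.3%. A match is a run of letters and not evidence of binding, and no match says only that these letters were not in the window.

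All 10 antiviral genes were higher with IFN-γ plus CD40L at 6 h. The rise was between 17.9-fold for Oas1a and 521-fold for Ifit2, with a median of 7.80 on the log2 scale beside −0.13 over all 12782 genes tested. A gene was called when limma gave a Benjamini-Hochberg adjusted p under 0.05 and the change was at least 2-fold. By that rule all 10 passed, as did 19.1% of all genes tested in the same direction. With each library's plain sum of reads as the divisor, in place of the scaled size behind the deposited values, the rise was 10.8-fold for Oas1a and 314-fold for Ifit2, the median was 7.07 beside −0.86 over all genes, and again all 10 were called. In bulk RNA of this kind, fewer cells of a type and less RNA per cell cannot be told apart.

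Ifit2 had the largest rise of the 10. It was at 10.3 and 9.12 CPM in the unstimulated NFAM1+/+ libraries and at 7.51 and 4.88 CPM in the NFAM1-/- libraries at 6 h. With the stimulus it was at 4310 and 3715 CPM in NFAM1+/+ and at 3816 and 4142 CPM in NFAM1-/-. The stimulated and unstimulated libraries were far apart in both genotypes, and the difference was 9.02 ± 0.15 on the log2 scale (SE, adjusted p = 2.63e-15). Its cluster neighbours on chromosome 19 rose less, and Rsad2 and Oasl1, which lie outside the cluster, ranked between Ifit2 and Ifit1. Ifit1 went from 4.76 to 9.48 CPM over the 4 unstimulated libraries to 1845 to 2114 CPM over the 4 stimulated ones, a log2 change of 8.12 ± 0.18 (adjusted p = 3.05e-14). Ifit3 went from 5.69 to 11.1 CPM to 1333 to 1645 CPM, a log2 change of 7.42 ± 0.20 (adjusted p = 2.04e-13). Reads of Ifit3 may in part belong to its near copy Ifit3b, since how the counting split them is not given in the sources used here.

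Rsad2, which encodes viperin, was at 12.1 and 9.66 CPM in unstimulated NFAM1+/+ and at 9.44 and 6.52 CPM in NFAM1-/- libraries. After 6 h of stimulus it was at 4360 and 3135 CPM in NFAM1+/+ and at 2878 and 3476 CPM in NFAM1-/-. No stimulated library came near the unstimulated ones, although the stimulated values of Rsad2 varied more than those of the other 9 genes, with a coefficient of variation of 18.7% over 4 libraries. The log2 change was 8.54 ± 0.18 (adjusted p = 1.96e-14).

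Isg15 and Usp18 encode the modifier and the enzyme that takes it off again. Isg15 was at 9.16, 9.09, 8.11 and 4.44 CPM in the unstimulated libraries 1 to 4, of which 3 and 4 are NFAM1-/-. It was at 1833 and 1540 CPM in stimulated NFAM1+/+ and at 1667 and 1785 CPM in NFAM1-/- at 6 h, a log2 change of 7.85 ± 0.19 (adjusted p = 8.54e-14). Library 4 was the low point of the unstimulated set. Usp18 went from 4.53 to 7.67 CPM to 1175 to 1357 CPM, a log2 change of 7.75 ± 0.15 (adjusted p = 8.23e-15). The modifier and its protease therefore rose by 230-fold and 215-fold, a gap smaller than the standard error of either.

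Mx1 went from 16.3 to 22.2 CPM to 3325 to 4166 CPM, a log2 change of 7.58 ± 0.14 (adjusted p = 5.36e-15). In the OAS family, Oas1a and Oasl2 overlapped in starting level and Oasl1 started lower. Oas1a was at 37.5 and 32.8 CPM in unstimulated NFAM1+/+ and at 34.6 and 30.2 CPM in NFAM1-/- libraries, and at 667, 561, 572 and 614 CPM in the stimulated libraries 26, 10, 11 and 12. It rose by 4.16 ± 0.12 on the log2 scale (adjusted p = 3.27e-13), the smallest change of the 10. Oasl1 went from 5.09 to 8.76 CPM to 1690 to 2221 CPM, a log2 change of 8.22 ± 0.15 (adjusted p = 4.23e-15), and Oasl2 from 21.2 to 34.7 CPM to 2849 to 3213 CPM, a log2 change of 6.76 ± 0.17 (adjusted p = 8.64e-14). Reads of Oas1a may be shared with close copies such as Oas1g, and those of Oasl1 with the antisense gene Gm13822, since the libraries were not stranded.

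Levels were compared between genes per kilobase of exon, with lengths from GENCODE vM21. The annotation behind the deposited counts is not given in the sources used here. In unstimulated cells at 6 h Oas1a stood first at 17.9 ± 1.63 CPM per kilobase (SD, n = 4), and its 4 libraries lay above those of every other member. Isg15 came second at 10.2 ± 2.94 CPM per kilobase. The remaining 8 lay between 2.03 and 5.15 CPM per kilobase, and each overlapped with the next in the order. With the stimulus at 6 h Oas1a moved from first to last and Ifit2 from last to second in this order. Ifit1, Oasl1 and Usp18 kept their ranks. Isg15 was first at 2257 ± 173 CPM per kilobase, clear of Ifit2 at 1018 ± 70.7, and Oas1a was last at 320 ± 25.7 CPM per kilobase, clear of Usp18 at 444 ± 29.1. Between those ends, Ifit2, Mx1, Ifit3, Rsad2, Ifit1 and Oasl1 lay at 734 to 1018 CPM per kilobase and each overlapped with its neighbour.

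**Figure D1:**
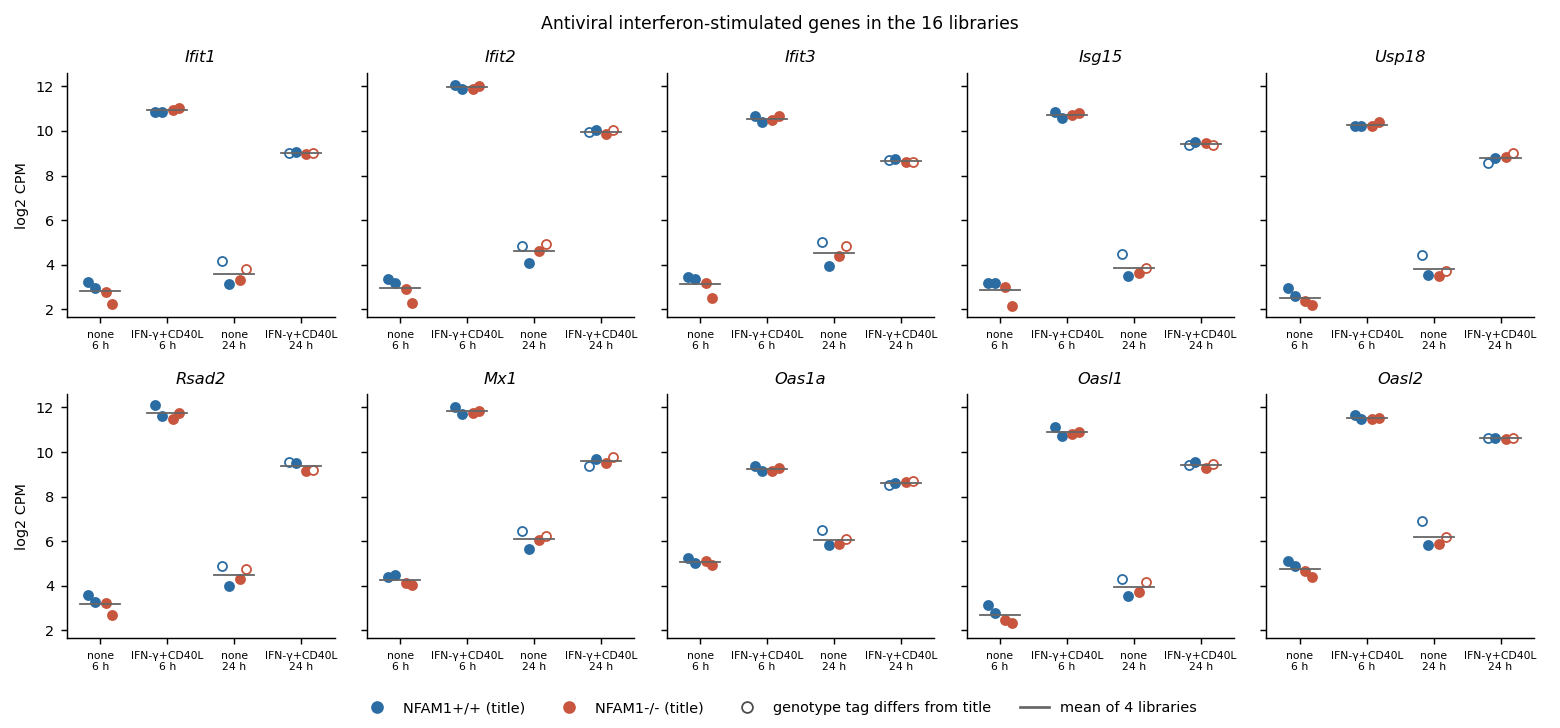
Each panel plots log2 CPM of 1 gene in the 16 libraries, by stimulus and time, with NFAM1+/+ in blue and NFAM1-/- in red by title, open circles for the 4 libraries whose genotype tag differs, and a bar at the mean of 4 libraries. Every gene is lowest in unstimulated cells at 6 h and highest with IFN-γ plus CD40L at 6 h, and at either time its stimulated libraries have a smaller coefficient of variation than its unstimulated ones.

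At 24 h all 10 genes were still higher with the stimulus, by 5.85-fold for Oas1a to 47.0-fold for Isg15, and all 10 were called, as were 14.6% of all genes tested in that direction. Isg15 was at 22.6 and 11.3 CPM in unstimulated NFAM1+/+ and at 12.5 and 14.4 CPM in NFAM1-/- libraries, and at 662 and 727 against 710 and 660 CPM with the stimulus. Its log2 change was 5.55 ± 0.19 (adjusted p = 5.05e-12). Oasl1 followed at 5.49 ± 0.15 (adjusted p = 3.93e-13) and Ifit1 at 5.41 ± 0.18 (adjusted p = 3.28e-12). Mx1, with a log2 change of 3.48 ± 0.14 (adjusted p = 2.50e-11), had moved to the lower end beside Oas1a at 2.55 ± 0.12 (adjusted p = 9.21e-11). The other 5 genes lay between 4.11 for Ifit3 and 5.36 for Ifit2.

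The effect of the stimulus was smaller at 24 h than at 6 h for all 10 genes, and for all 10 the difference of the log2 effects passed the test, as it did in this direction for 18.2% of all genes tested. The largest difference was that of Mx1, whose log2 effect fell by 4.10 ± 0.20 (adjusted p = 1.11e-09). Rsad2 and Ifit2 fell by 3.67 ± 0.25 and 3.66 ± 0.22 on the log2 scale, and Oas1a had the smallest difference, a fall by 1.61 ± 0.16 (adjusted p = 1.10e-06). The median over the 10 genes was −2.74 beside 0.04 over all genes tested. Both a lower stimulated level and a higher unstimulated level at 24 h went into this difference.

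As deposited, the 10 genes were lower at 24 h than at 6 h in stimulated cells, with all 4 libraries at 24 h below all 4 at 6 h for each, as was so for 33% of all genes tested. The fall passed the 2-fold rule for 8 of the 10, beside 17.2% of all genes tested called lower. Rsad2 fell most. It was at 749, 731, 573 and 588 CPM in libraries 56, 57, 55 and 58, which is 19.2% of its level at 6 h, and the log2 change was −2.38 ± 0.18 (adjusted p = 2.65e-08). Mx1, at 657 to 881 CPM, kept 21.1% of its level at 6 h and Ifit2, at 935 to 1059 CPM, kept 25.2%. Ifit1 at 493 to 533 CPM and Ifit3 at 384 to 429 CPM kept 26.4% and 27.1%, so that the IFIT genes fell by close to the same share. Usp18, Oasl1 and Isg15 kept 35.9%, 36.1% and 40.5%.

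Oasl2 and Oas1a changed least over time in stimulated cells. Oasl2 was at 1541 to 1593 CPM in the 4 stimulated libraries at 24 h, the tightest values of the 10 with a coefficient of variation of 1.39%, and its log2 change from 6 h was −0.91 ± 0.17 (adjusted p = 1.75e-04). Oas1a was at 364, 392, 404 and 413 CPM, a log2 change of −0.62 ± 0.12 (adjusted p = 2.36e-04). Both had an adjusted p under 0.05 and stayed under the 2-fold rule. With own totals the change was −0.54 for Oasl2 (adjusted p = 0.00676) and −0.24 for Oas1a (adjusted p = 0.0563). After quantile normalization it was −0.38 (adjusted p = 0.0688) and −0.10 (adjusted p = 0.472), so that the fall of these genes did not pass under every scaling. With each library centred on the median of the genes tested Oasl2 was past the 2-fold rule, at −1.09. Per kilobase the order at 24 h with the stimulus was led by Isg15 at 912 ± 44.7 CPM per kilobase. Rsad2 came last at 152 ± 21.3 CPM per kilobase, overlapping with Usp18 at 160 ± 20.6.

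The size of this fall depended on how the libraries were scaled. The deposited CPM rest on a scaled library size, and the reads on listed genes were 1.24 to 1.32 times that size in stimulated libraries at 6 h and 0.970 to 0.997 times in stimulated libraries at 24 h. The median log2 change of the 10 genes from 6 to 24 h was −1.68 as deposited, beside 0.04 over all genes. When the plain sum of a library's reads was the divisor it was −1.31 beside 0.41 over all genes. Relative to the median of all genes it was −1.72 either way, and −1.19 after quantile normalization, under which 5 of the 10 genes were called lower in place of 8. With own totals 7 were, Isg15 being under 2-fold at −0.93. With each library centred on the median of the genes tested 9 were, and the median change was −1.855.

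Without the stimulus the 10 genes were higher at 24 h than at 6 h, at levels far under the stimulated ones. Of the 10, 7 were called higher, beside 13.2% of all genes tested. For 9 genes all 4 libraries at 24 h lay above all 4 at 6 h, as for 31.5% of all genes tested, and for Ifit1 the times overlapped. Mx1 was at 21.2, 22.2, 17.4 and 16.3 CPM in libraries 1 to 4 at 6 h and at 88.0, 51.0, 66.6 and 76.0 CPM in libraries 44, 45, 43 and 46 at 24 h. Its log2 change was 1.85 ± 0.14 (adjusted p = 6.31e-08), the largest of the 10. Ifit2 rose by 1.67 ± 0.15 on the log2 scale (adjusted p = 4.63e-07) to 16.9 to 30.2 CPM. Oasl2, Ifit3, Rsad2, Usp18 and Oasl1 rose by 1.25 to 1.43 on the log2 scale. Oas1a at 0.99, Isg15 at 0.99 and Ifit1 at 0.80 had adjusted p values of at most 0.00144 and stayed under 2-fold.

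The unstimulated libraries at 24 h had the widest spread by the median, a median coefficient of variation of 29.6% over the 10 genes. That median was 24.9% without the stimulus at 6 h, and 7.85% and 5.46% with it at 6 h and 24 h. Library 44 was the highest of the 4 for 9 genes and library 45 the lowest for 9. Library 44 is also 1 of those whose labels disagree, and without the 4 such libraries 4 genes were called higher at 24 h in place of 7. Some markers of other cell types were higher in the same libraries. The 6 neutrophil markers, all listed, summed to 37.1 to 119 CPM at 6 h and to 289 to 502 CPM at 24 h without the stimulus, and to 70.8 to 121 CPM with it at 24 h. Ngp, Camp, Ltf and Ly6g were higher at 24 h without overlap. Elane was at 3.09 to 6.49 CPM at 6 h and 0.0979 to 5.07 CPM at 24 h, and Mpo at 3.82 to 7.52 and 1.46 to 6.34 CPM, so neither was higher. The 3 listed erythroid genes summed to 3.18 to 14.6 and 2.73 to 17.7 CPM, which overlap. The B cell marker Cd79b was at 3.44 to 3.9 CPM at 6 h and 5.96 to 16.4 CPM at 24 h without the stimulus. The T cell marker Cd8a was at 0.0914 to 0.896 and 1.22 to 3.68 CPM. Cd79a, also a B cell marker, was at 0.809 to 1.22 and 0.582 to 1.12 CPM, which overlap. Siglech, a marker of plasmacytoid dendritic cells, which are known as producers of type I interferon, was at 2.13 to 5.89 CPM at 6 h and at 11.0 to 23.9 CPM at 24 h without the stimulus. Among the 4 libraries at 24 h, Siglech was higher in 46 and 43 than in 44 and 45, which were the highest and the lowest for most of the 10 genes. The part of these cells in the result was not tested.

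**Figure D2:**
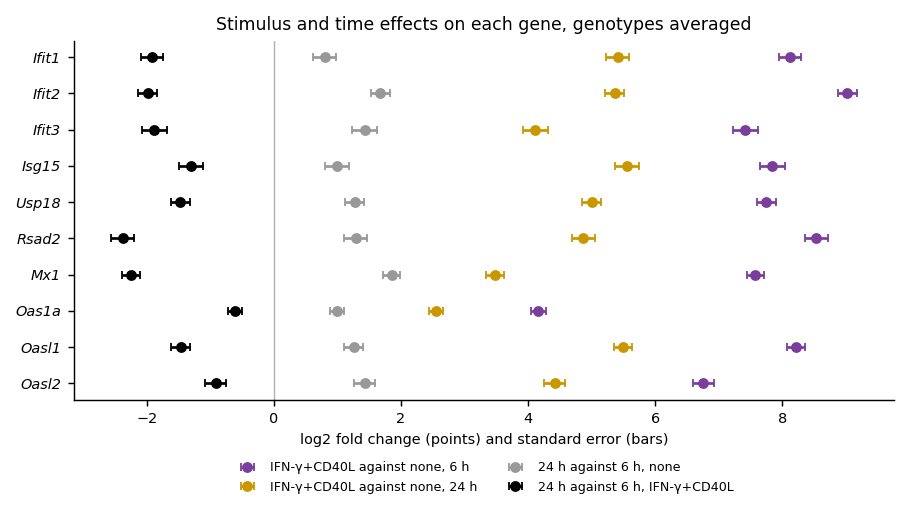
Points give the log2 fold change of each gene for the stimulus at 6 h and at 24 h and for 24 h against 6 h with and without the stimulus, over 4 against 4 libraries, and bars give the standard error. The stimulus effect at 24 h lies to the left of that at 6 h for each gene, from 1.61 lower for Oas1a to 4.10 lower for Mx1, while the unstimulated change over time lies between 0.80 and 1.85.

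As a share of all reads, the 10 genes together took 0.0137% to 0.0211% in unstimulated libraries at 6 h and 1.7% to 1.94% in stimulated ones. At 24 h they took 0.0329% to 0.0596% without and 0.701% to 0.753% with the stimulus. No set of libraries overlapped with another on this measure.

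The genotype comparison asked whether loss of NFAM1 changed these transcripts. In unstimulated cells at 6 h all 10 genes were lower in NFAM1-/- than in NFAM1+/+ libraries by the mean, by 0.12 for Oas1a to 0.68 for Ifit2 on the log2 scale. None of the 10 passed the test, and 0.0861% of all genes tested did. The lowest adjusted p was that of Ifit2, 0.284, with a difference of −0.68 ± 0.22 and a 95% interval of −1.15 to −0.21 before adjustment. For 9 of the 10 genes both NFAM1-/- libraries lay below both NFAM1+/+ libraries, as they did for 20.3% of all genes tested. The libraries overlapped for Oas1a. Genes that respond to the same signal move together, so the 9 are not independent.

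Library 4, an NFAM1-/- library, was the lowest for all 10 genes and library 1, an NFAM1+/+ library, the highest for 9. Oasl1 was at 8.76 and 6.87 CPM in NFAM1+/+ and at 5.48 and 5.09 CPM in NFAM1-/- libraries, and Usp18 at 7.67 and 6.02 against 5.21 and 4.53 CPM. Without library 4 the difference was still below 0 for all 10 genes, between −0.50 for Oasl1 and −0.02 for Oas1a, with a median of −0.33 in place of −0.52 on the log2 scale. Library 4 also held the most Siglech of the 4, 5.89 CPM against 2.13 to 2.94 CPM, and the most Ngp, a granule gene of neutrophils, 49.4 CPM against 14 to 37.5 CPM. The part of this in the difference was not tested.

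With the stimulus at 6 h no member passed between genotypes, and 0% of all genes tested did. The median difference over the 10 genes was −0.03 on the log2 scale. NFAM1-/- libraries lay above NFAM1+/+ libraries for Ifit1 and Usp18 and overlapped for the other 8, while 42.4% of all genes tested did not overlap in one direction or the other. The 95% intervals of the 10 genes together, before adjustment, ran from −0.77 to 0.68 on the log2 scale. They rest on the spread between libraries, which may be technical in part, and so do not bound the difference between mice. The difference between genotypes in the stimulus effect at 6 h was above 0 for all 10 genes, with a median of 0.55 on the log2 scale. It is the genotype difference with the stimulus minus that without it, whose medians were −0.03 and −0.52. It therefore in large part restates the lower unstimulated values of the NFAM1-/- libraries. Over all 12782 genes tested it was above 0 for 6626. Without library 4 it was above 0 for 8 genes, with a median of 0.27, and without library 1 or library 10 for 9 genes, with a median of 0.38 each. None passed the test, as was so for 0% of all genes tested, and at an unadjusted p under 0.05 there was 1 of the 10, Ifit2.

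At 24 h the result was the same by count. Without the stimulus no member passed, beside 0.289% of all genes tested, and the genotypes overlapped for all 10, while 45.4% of all genes tested did not overlap. With the stimulus no member passed, beside 0.579%, and 4 of the 10 did not overlap, beside 48.2% of all genes tested. Of these, Ifit3 and Rsad2 were lower and Usp18 and Oas1a higher in NFAM1-/- libraries. The 95% intervals ran from −0.84 to 0.76 on the log2 scale without the stimulus and from −0.90 to 0.69 with it. With the genotype tag in place of the title, the median difference over the 10 genes without the stimulus was 0.28 in place of −0.04 on the log2 scale, and again none passed. By the tag 2 of all genes tested were called without the stimulus and 3 with it.

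**Figure D3:**
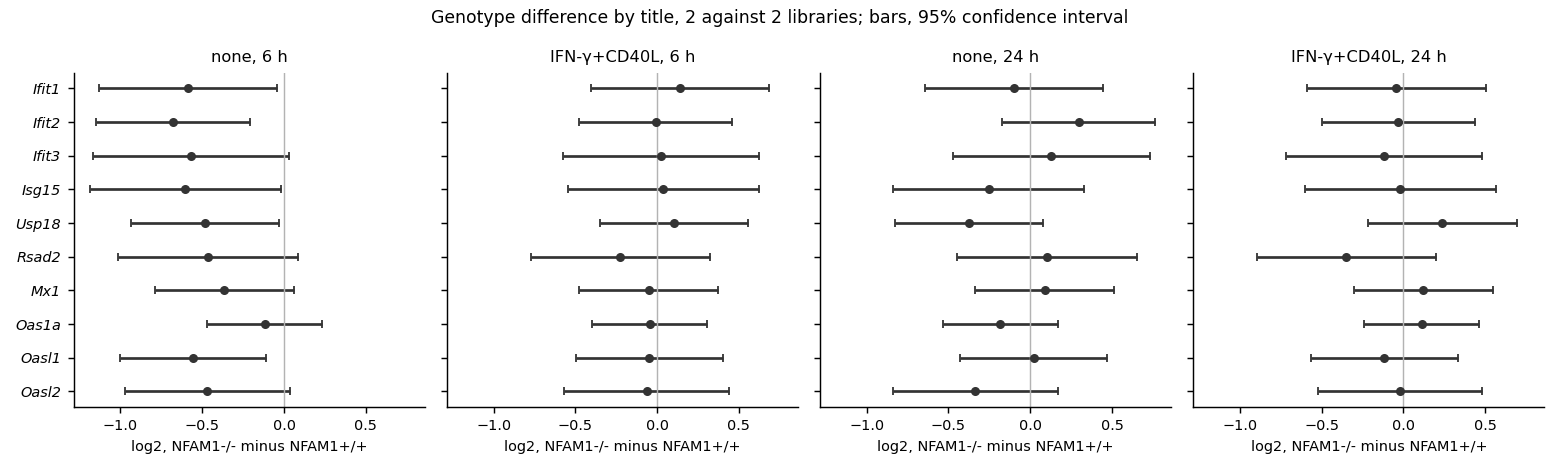
Points give the log2 difference of NFAM1-/- minus NFAM1+/+ libraries by title for each gene, 2 against 2 libraries in each of the 4 panels, and bars give the 95% confidence interval before adjustment. The points lie below 0 for all 10 genes in unstimulated cells at 6 h, from −0.12 to −0.68, and on both sides of 0 in the other panels.

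Genes for interferon beta and for factors known to act on interferon-stimulated genes were on a list of 17 signalling genes. Their part in the rise of the 10 antiviral genes was not tested. Of the 17, 13 were listed in the table and tested for a change. At 6 h 6 were called higher with the stimulus and 1 lower, and 6 higher and 4 lower with libraries scaled to their own totals of reads. Ifnb1, the gene for interferon beta, had 10, 12, 2 and 0 reads in the unstimulated libraries 1 to 4 at 6 h and 1934, 3000, 3330 and 3995 reads in the stimulated libraries 26, 10, 11 and 12. That is at most 0.2 CPM against 35.2 to 78.5 CPM, and the fitted log2 change of 10.5 ± 0.57 (adjusted p = 5.31e-10) depends on the offset of 0.5 reads. At 24 h Ifnb1 was at 0.88 to 2.17 CPM with the stimulus, and its log2 change from 6 h was −5.12 ± 0.57 (adjusted p = 1.58e-06), a steeper fall than that of any of the 10 antiviral genes. The interferon alpha genes Ifna1, Ifna2, Ifna4 and Ifna5 were not listed in the table.

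The factors had smaller changes over time than Ifnb1. Stat2 was up by 4.75 ± 0.09 on the log2 scale at 6 h and by 3.10 ± 0.09 at 24 h, and was lower at 24 h than at 6 h in stimulated cells by −1.27 ± 0.09 (adjusted p = 1.59e-08) as deposited. That change of Stat2 was −0.89 with own totals and −0.73 after quantile normalization, both under the 2-fold rule. Irf9, its partner, went from 77.8 to 82.9 CPM to 284 to 322 CPM at 6 h, a log2 change of 1.87 ± 0.06, and to 258 to 274 CPM at 24 h. Irf7, a factor that is itself induced by interferon and drives interferon genes, was up by 6.05 ± 0.16 at 6 h and by 4.51 ± 0.16 at 24 h. In stimulated cells Irf7 and Irf9 changed from 6 to 24 h by −0.16 each on the log2 scale as deposited, and by 0.21 each with libraries scaled to their own totals. Irf3, a factor that nucleic acid sensors activate to switch on interferon genes, had a log2 change of −0.88 ± 0.05 at 6 h, under the 2-fold rule, and one of −1.61 (adjusted p = 2.11e-12) with own totals, past it. Ifngr1, the ligand-binding chain of the IFN-γ receptor, was called lower, by −2.38 ± 0.05 at 6 h.

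**Figure D4:**
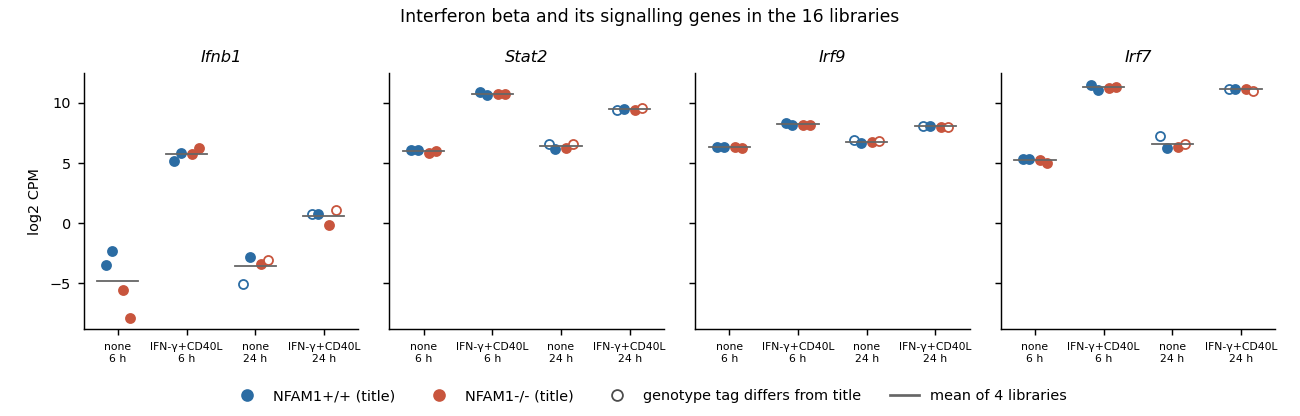
Log2 CPM of Ifnb1, Stat2, Irf9 and Irf7 in the 16 libraries, with colours and symbols by genotype of the title and bars at the mean of 4 libraries. Ifnb1 drops from 35.2 to 78.5 CPM in stimulated cells at 6 h to 0.88 to 2.17 CPM at 24 h, while Irf7 and Irf9 are nearly level between these times.

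Relatives of the 10 genes rose with them. Of 11 family relatives 10 were tested, and all 10 were called higher at 6 h and at 24 h, with medians of 6.48 and 2.97 on the log2 scale. Cmpk2, the neighbour of Rsad2 that encodes a nucleotide kinase, rose by 7.72 ± 0.12 at 6 h, the most of the relatives, and by 3.14 ± 0.12 at 24 h. Ifit1bl2 rose by 7.22 ± 0.54 at 6 h from at most 0.208 CPM. Oas1g and Oas1b had the smallest rises at 6 h, by 4.56 ± 0.19 and 4.42 ± 0.12, close to the 4.16 of Oas1a. The genes that attach ISG15 to proteins, Uba7, Ube2l6 and Herc6, which are the activating, conjugating and ligating enzymes, rose by 4.83 ± 0.07, 5.62 ± 0.10 and 6.77 ± 0.13 at 6 h, and all 3 were called at both times.

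Other antiviral effectors and sensors numbered 23, of which 21 were tested. At 6 h 20 were called higher and none lower, with a median of 4.07, and at 24 h 17 were called higher and 1 lower, with a median of 2.32. Ifi44, an interferon-induced cytoplasmic protein, and Zbp1, a sensor of left-handed nucleic acids, had the largest rises at 6 h, by 8.62 ± 0.24 and 7.28 ± 0.14. Ifitm2, from a family of membrane proteins that block viral entry, had a change of −0.33 ± 0.15 at 6 h (adjusted p = 0.0576) as deposited, and was called lower with own totals, at −1.06 (adjusted p = 1.34e-05). By own totals the list had 19 genes called higher and 1 lower at 6 h, and 16 higher and 2 lower at 24 h.

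A list of 10 targets of IFN-γ, known for GAS elements or for control by Irf1, were the comparison for the other arm of the interferon response. All 10 were called higher at both times, with medians of 8.84 at 6 h and 6.38 at 24 h on the log2 scale beside 7.80 and 4.94 for the antiviral genes. Cxcl9, a chemokine for T cells, rose by 11.1 ± 0.19 at 6 h and by 9.76 ± 0.19 at 24 h, and Iigp1, a GTPase that attacks parasite vacuoles, by 10.9 ± 0.20 and 8.84 ± 0.20. Irgm1, of the same GTPase family, rose by 6.10 ± 0.10 and 4.69 ± 0.10. Ciita, the master regulator of MHC class II, rose by 4.18 ± 0.10 at 6 h and was the only one of the 10 targets that was called higher at 24 h than at 6 h in stimulated cells, by 1.24 ± 0.10 (adjusted p = 8.95e-08). From 6 to 24 h in stimulated cells 5 targets were called lower, against 8 of the antiviral genes, and the medians were −0.94 and −1.68. These counts depended on scaling. With own totals 3 targets and 7 antiviral genes were called lower, and after quantile normalization 2 targets and 5 antiviral genes. With libraries centred on the median of the genes tested 5 targets and 9 antiviral genes were. Iigp1 at −0.96 and Irgm1 at −0.72 were under 2-fold with own totals, and after quantile normalization so was Cxcl9 at −0.97. The response element core was matched in 7 of the 8 targets with a promoter window and GAS in 3, against 5 and 2 of the 8 antiviral genes with one. Over all genes with a window the core was matched in 9.76% and GAS in 9.55%. Whether the lists differ was not tested.

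**Figure D5:**
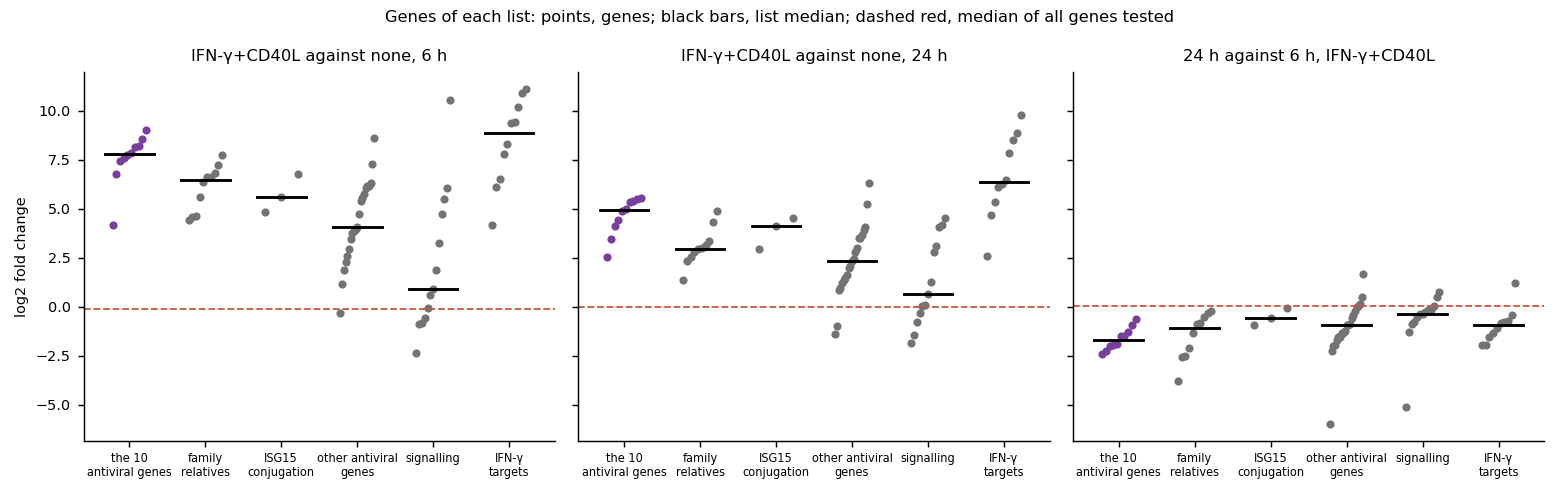
Each point is the log2 fold change of 1 gene, for the stimulus at 6 h, the stimulus at 24 h and 24 h against 6 h with the stimulus, with a black bar at the median of each list and a dashed line at the median of all genes tested. The 10 antiviral genes have medians of 7.80, 4.94 and −1.68, and the targets of IFN-γ have 8.84, 6.38 and −0.94.

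The members resembled one another in their course over the 8 groups, except for Oas1a. Likeness was measured as the root mean square difference, over the 8 group means, between the centred log2 CPM of a gene and the mean course of the 10 genes. Usp18 and Ifit3 lay nearest to that mean, at 0.189 and 0.197, and were the nearest of all genes tested. Oas1a lay farthest of the 10, at 1.42, and ranked 368 among the genes tested. The 5 genes outside the list with the nearest course were Ifi47 at 0.272, Zbp1 at 0.288, Phf11d at 0.297, Ifi213 at 0.312 and Gm18853 at 0.319. Ifi47, a GTPase known as a target of IFN-γ, went from 8.05 to 14.4 CPM without to 2613 to 2926 CPM with the stimulus at 6 h, and to 1066 to 1117 CPM with it at 24 h. The members themselves set the mean course, so their own nearness to it is a description.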

How the data were processed

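RNA of mouse monocytes was sequenced in 16 libraries. The authors made polyA libraries without strand information, aligned the read pairs by STAR, obtained gene counts from Rsubread and used edgeR for normalization. The submitters' processing notes also name FastQC, limma and the build GRCm39, and the annotation and tool versions are not given in the sources used here. The deposited values are log2 CPM for 13085 genes, formed as the log2 of a gene's reads, with 0.5 added, per scaled library size. From this form the reads behind 100% of the values came out whole within 0.05.

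A single limma 3.58.1 model (R 4.3.3) covered the 16 libraries as 8 groups, leaving 8 residual degrees of freedom, with the prior variance trended on the mean. The filter asked for 1 CPM or more in 2 or more libraries, which kept 12782 genes and left out 303. Genes were called at a change of at least 2-fold and a Benjamini-Hochberg adjusted p under 0.05 over all genes tested. Because the deposited unit is log2 CPM, count models were not run. The fit was checked on simulated data. The 10 genes and the lists (family relatives, ISG15 conjugation, other antiviral genes, signalling, IFN-γ targets and cell markers) were chosen with earlier results of these data known. From each list the 2 largest and 2 smallest changes with the stimulus at 6 h were named, besides Ifnb1, Stat2, Irf9 and Irf7, and the 5 genes with the nearest course. Some genes that this rule or the lists cover are not reported here. Promoter sequences are from RefSeq on GRCm38.p6, matched by symbol. Alternatives were 3 other scalings, other filters, other variance models including voom weights, a fit of 1 time point, the genotype tag, leaving out libraries, no genotype term and no minimum fold change. The methods also describe cells given IFN-γ alone, and none of the 16 libraries is of that kind. The parts of IFN-γ and of CD40L in the stimulus effect therefore cannot be told apart.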

Additional observations from a re-analysis of the deposited data

Results flagged for a closer look

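For each of the 10 genes the effect of the stimulus differed between 24 h and 6 h by a test of the difference itself. The log2 effect at 24 h minus that at 6 h was −2.72 for Ifit1, −3.66 for Ifit2, −3.31 for Ifit3, −2.29 for Isg15, −2.75 for Usp18, −3.67 for Rsad2, −4.10 for Mx1, −1.61 for Oas1a, −2.73 for Oasl1 and −2.35 for Oasl2. The highest adjusted p of the 10 was 4.89e-06.

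Library 4 stood apart for Isg15 among the 4 unstimulated libraries at 6 h. It held 4.44 CPM against 8.11 to 9.16 CPM, and its gap to the next library was 0.832 of the range on the log2 scale, just past Dixon's 95% limit for 4 libraries. This was the 1 case among 40 sets of 4 libraries that were looked at, and chance gives about 1 in 20.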

How the results depend on the processing

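All 10 genes were called with the stimulus at 6 h, at 24 h and for the difference between the times under every alternative run, and none of the 10 was called between genotypes under any. For 24 h against 6 h in stimulated cells quantile normalization gave 5 called genes in place of 8, with Isg15, Usp18 and Oasl1 under 2-fold, and leaving out 1 library gave 8 each time. For 24 h against 6 h without the stimulus, 4 were called in place of 7 without the 4 libraries whose labels disagree, and 7 to 10 with 1 library left out. For 24 h against 6 h in stimulated cells own totals gave 7 called genes and centring on the median of the genes tested gave 9. Scaling to own totals turned the change of Irf3 at 24 h with the stimulus from 0.07 to −0.26, and the changes from 6 to 24 h of Irf7 and Irf9 to 0.21 and 0.21, while quantile normalization gave −0.12, 0.22 and 0.26. The median genotype difference of the 10 genes in unstimulated cells at 24 h ran from −0.47 to 0.40 with 1 library left out, the ends being without library 45 and without library 44.

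Counts over all genes depended on scaling, filter and call rule. Of the genes called with the stimulus at 6 h, 48.1% were higher as deposited and 21.9% with own totals. At 24 h these shares were 43.9% and 30.4%, for 24 h against 6 h with the stimulus 49% and 69.3% (37.9% after centring on medians), and for the difference of the effects 42.2% and 67.4%. Genes called higher at 6 h numbered 2440, against 1562 with own totals and 4474 with no minimum fold change. That last rule gave 4893 in place of 1867 at 24 h, 4381 in place of 1692 over time without the stimulus, 4685 in place of 2197 with it and 4084 in place of 2328 for the difference, and a mean of at least 5 CPM gave 846, 1398 and 1469 for the last 3. Genes called between genotypes numbered 11, 0, 37 and 74 and ran with 1 library left out from 1 to 40, 0 to 126, 7 to 64 and 1 to 182, in the order unstimulated and stimulated at 6 h, then at 24 h. A library left without its partner is assumed to vary like the other groups. With the genotype tag in place of the title, 2 genes were called at 24 h without the stimulus and 3 with it. No paired analysis was possible because the groups share no replicate numbers. Genotype comparisons rest on 2 libraries a side. The causes were not tested.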

Other observations

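The lists of markers of other cell types were read in all libraries. Of the 4 markers of plasmacytoid dendritic cells, all listed, the sum was 25.9 to 35.9 CPM without and 389 to 502 CPM with the stimulus at 6 h, and 77.2 to 111 CPM and 542 to 627 CPM at 24 h. Bst2, which is itself induced by interferon, made up most of these sums, with 350 to 453 CPM in stimulated libraries at 6 h, and Pacsin1 went from 0.0401 to 0.861 CPM to 33.9 to 39.6 CPM at 6 h. Siglech was at 1.3 to 4.1 CPM with the stimulus at 6 h, against 2.13 to 5.89 CPM without, and Ccr9 at 1.57 to 4.45 CPM against 0.97 to 2.39 CPM. The neutrophil markers summed to 42.3 to 172 CPM with the stimulus at 6 h. The 2 listed B cell markers, Cd79a and Cd79b, summed to at most 17.4 CPM in any library, the 1 listed T cell marker, Cd8a, to at most 4.02 CPM, and the 3 listed erythroid genes to at most 39.5 CPM.

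Among windows of the other lists, the response element core was matched in 6 of the 7 family relatives with a window, in 10 of 16 other antiviral genes, in 1 of 12 signalling genes and in none of the 3 genes of ISG15 conjugation. Over all genes with a window the core was matched in 9.76%. All 3 genes of ISG15 conjugation rose more than 16-fold at 6 h, and a link between matches and rise was not tested.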
